A study of Mus musculus with 7 samples.

Results

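Anti-Müllerian hormone (AMH), the receptors that can carry its signal and their SMAD proteins were followed through the ovarian RNA-seq of CNTR and PAMH F3 mice. The set was chosen by name and holds 10 genes, of 55487 gene identifiers in the deposited counts: Amh, the AMH-specific type II receptor Amhr2, the type I receptors Acvr1, Bmpr1a and Bmpr1b, the BMP type II receptor Bmpr2, the receptor-regulated SMADs Smad1, Smad5 and Smad9, and the common SMAD, Smad4. All 10 were found by symbol in the annotation. All 10 passed the filter on low counts, the lowest count of any of them being 328 (Smad9).

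Whole ovaries of C57BL/6J females were collected at diestrus on postnatal day 60, one library per animal. The 3 CNTR mice were offspring of dams given PBS during the last days of gestation. The 4 PAMH F3 mice were the third generation descending from dams given human AMH at 0.12 mg/kg per day at the same stage, bred within the PAMH lineage with no further AMH. The labels give the injections as subcutaneous and the study's methods as intraperitoneal. The CNTR mice came one generation after the injected dams, so lineage and generation cannot be told apart. No source used here says whether the animals of a group were littermates, and p-values measure the spread between these libraries.

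AMH is a hormone of the TGF-β superfamily made by granulosa cells of growing follicles, where it restrains the recruitment of primordial follicles and the response to FSH. It binds AMHR2, which binds no other known ligand. AMHR2 then pairs with a type I receptor that is shared with the bone morphogenetic proteins (BMPs). The type I receptor phosphorylates SMAD1, SMAD5 or SMAD9, which enter the nucleus together with SMAD4. BMPR2 is the type II receptor through which many BMPs reach the same SMADs.

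The type II receptor promoters are shown first, since AMHR2 alone makes a cell responsive to AMH while BMPR2 serves the BMPs that share the downstream path. RefSeq (GRCm38.p6) gave windows for 8 of the 10 genes, from 250 bases before to 50 bases after a transcript start. Amh and Smad4 had no window, so their promoters were not searched. The Amhr2 window lies at chr15:102445117-102445416 and the Bmpr2 window at chr1:59764029-59764328, both on the plus strand and written 5′ to 3′. In the gene annotation (GENCODE M21) Amhr2 starts at 102445367, within its window. Bmpr2 starts there at 59763400, so its whole window lies inside the annotated gene, downstream of that start. Capitals mark CAAGGTC, the site read by steroidogenic factor 1 (the product of Nr5a1), in the first, and GGCGCC, a GC-rich element read by BMP-activated SMADs, in the second.
Amhr2: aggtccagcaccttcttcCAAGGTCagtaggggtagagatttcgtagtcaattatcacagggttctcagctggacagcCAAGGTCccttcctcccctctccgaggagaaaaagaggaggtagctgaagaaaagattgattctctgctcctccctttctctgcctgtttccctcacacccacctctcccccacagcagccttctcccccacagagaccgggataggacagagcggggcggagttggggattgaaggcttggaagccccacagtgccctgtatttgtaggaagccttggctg
Bmpr2: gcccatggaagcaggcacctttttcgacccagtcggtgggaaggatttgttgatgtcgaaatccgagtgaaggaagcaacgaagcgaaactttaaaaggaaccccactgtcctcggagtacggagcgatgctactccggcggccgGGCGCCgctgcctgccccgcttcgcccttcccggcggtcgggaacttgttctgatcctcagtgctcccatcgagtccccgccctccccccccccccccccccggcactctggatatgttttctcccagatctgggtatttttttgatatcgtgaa

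CAAGGTC was searched on both strands (reverse GACCTTG), and 3.96% of 32851 RefSeq windows of 300 bases held it. The Amhr2 window held 2 copies, starting at positions -232 and -172, counted from the transcript start at 0. No other window of the 8 genes held a copy, and Amh was not among them. GGCGCC, which reads the same on both strands, was in 11.9% of all windows. Single copies stood in the windows of Bmpr2, Bmpr1a and Smad9 and in 2 overlapping Smad5 windows, and the windows of Bmpr1b, Acvr1, Smad1 and Amhr2 held none. These are matches of letters and say nothing about binding.

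Between 32158174 and 35485021 reads were counted on genes per library. Values below are CPM, the counts of a gene scaled to the size of its library after TMM normalization, and depth is not what limits them. The library of CNTR 2 stood apart in base composition: its levels climbed by 0.32 on the log2 scale for each 10 points of transcript GC content relative to the mean of all libraries, against slopes from -0.13 to 0.05 in the other 6. The surface and oviduct epithelium list held Ovgp1, the oviduct glycoprotein, at 2394 to 6172 CPM, so oviduct RNA was present in every library. The theca marker Insl3 had no counts in CNTR 1 and CNTR 3 and stayed at or below 0.150 CPM elsewhere.

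None of the 10 genes passed the test of PAMH F3 against CNTR. In whole ovaries fewer cells of a type and less RNA in each of them cannot be told apart. The smallest adjusted p was 0.628, for Bmpr2, in edgeR's quasi-likelihood test with 2 surrogate variables (estimates of hidden variation between libraries). The same held over all 18779 genes tested, of which 0% were called at an adjusted p of at most 0.05 (0 genes higher and 0 lower), while 7.63% (1432 genes) had an unadjusted p under 0.05. Given the same 2 variables, DESeq2 called 0.57% of the genes and no member. Log2 fold changes were above 0 in 5 of the 10 members, beside 52.2% of all genes, and the mean CPM was higher in PAMH F3 in 7 of the 10, beside 50.9%. At the unadjusted threshold 1 of the 10 was higher, Bmpr2, against a background of 3.89%, and 1 was lower, Amh, against a background of 3.74%. Without surrogate variables the count was 0 of 10, with 3.89% of all genes. In every member the CNTR and PAMH F3 libraries overlapped, whereas 4.25% of all genes had groups that did not overlap (1.85% with every PAMH F3 library above and 2.4% with every one below).

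**Figure D1:**
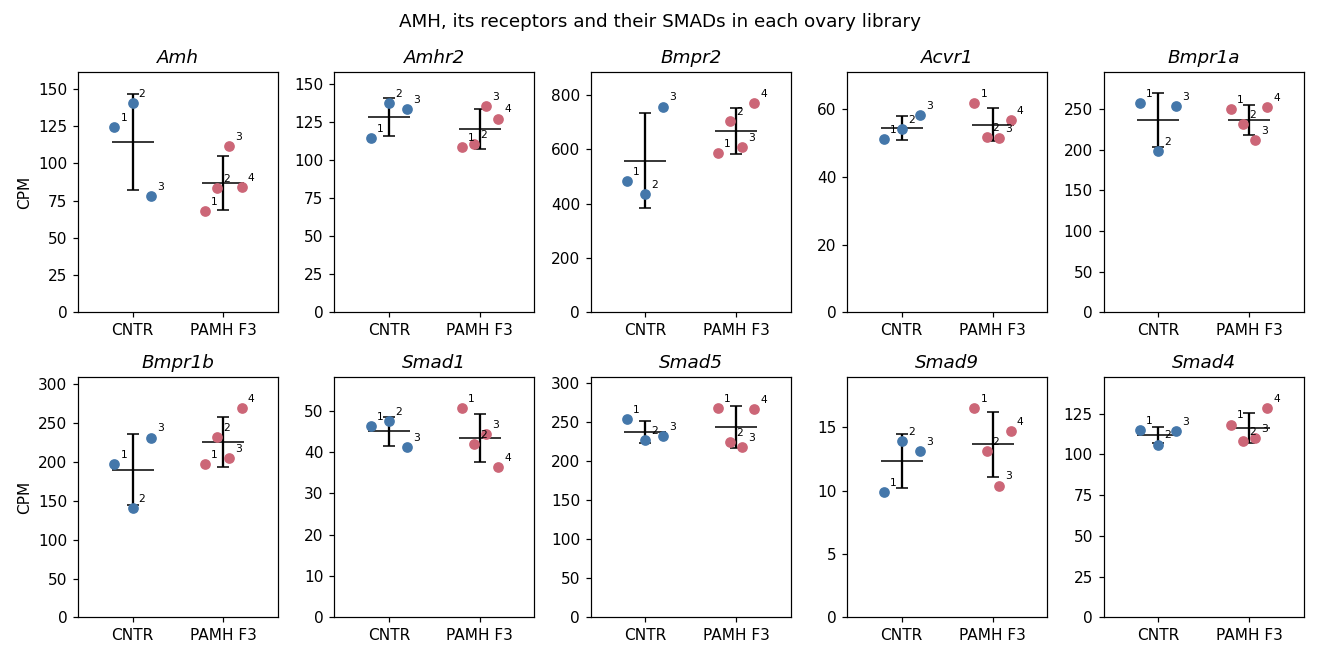
CPM (y axis, from 0) of each gene in the 3 CNTR (blue) and 4 PAMH F3 (red) libraries, numbered by replicate, with the group mean as a horizontal bar and the SD as a vertical one. The ranges of both groups overlap in all 10 panels, and the CNTR libraries of Amh and Bmpr2 are spread more widely than the others.

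The hormone gene Amh (ENSMUSG00000035262, mm10 chr10:80805243-80807648, plus strand) was at 124, 140 and 78.0 CPM in CNTR 1 to 3. In PAMH F3 1 to 4 it was at 68.0, 83.6, 112 and 84.0 CPM. CNTR 1 and CNTR 2 lay above every PAMH F3 library, while CNTR 3 lay below 3 of the 4. The means were 114 ± 32.4 (SD, n = 3) and 86.7 ± 18.1 CPM (SD, n = 4). The log2 fold change was -0.34 ± 0.13 (SE), with a 95% interval from -0.64 to -0.03 before any adjustment and an adjusted p of 0.633 in edgeR (unadjusted p = 0.0369). Without surrogate variables it was -0.40, with an interval from -0.88 to 0.08 and an unadjusted edgeR p of 0.0954. An exact two-sided permutation test on log2 CPM over the 35 ways to divide the libraries gave p = 0.229, where 0.0286 is the smallest p this design allows.

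The base composition of the libraries is given beside Amh. Amh had the highest transcript GC content of the 10 members (65.4%), and its highest value was in CNTR 2, the library that favored GC-rich genes. Among 105 tested genes within 2.5 points of that GC content, the median log2 fold change without surrogate variables was -0.42, and 93.3% of them were below 0. With surrogate variables that median was -0.16, beside -0.34 for Amh. Once an offset for GC content and gene length was fitted without surrogate variables, Amh stood at 142, 75.8 and 74.1 CPM in CNTR 1 to 3 and at 87.2, 92.4, 96.0 and 113 CPM in PAMH F3 1 to 4. On that scale CNTR 1 was the highest library and the other CNTR libraries the lowest. The fitted log2 fold change was then 0.00 ± 0.22 (SE), with an interval from -0.50 to 0.50. With the offset and the 2 surrogate variables together, an alternative chosen after seeing the data, it was -0.11 (interval -0.42 to 0.19). The offset was fitted in each library without regard to group, so it also takes up any group difference that runs with GC content or length. How far base composition carries the difference in Amh was not tested. Without surrogate variables the log2 fold change was -0.23 with CNTR 2 left out, and -0.61 with CNTR 3 left out. The groups then no longer overlapped, because CNTR 3 was the only CNTR library not above every PAMH F3 library. The share of all genes that separate with CNTR 3 left out was not counted.

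**Figure D2:**
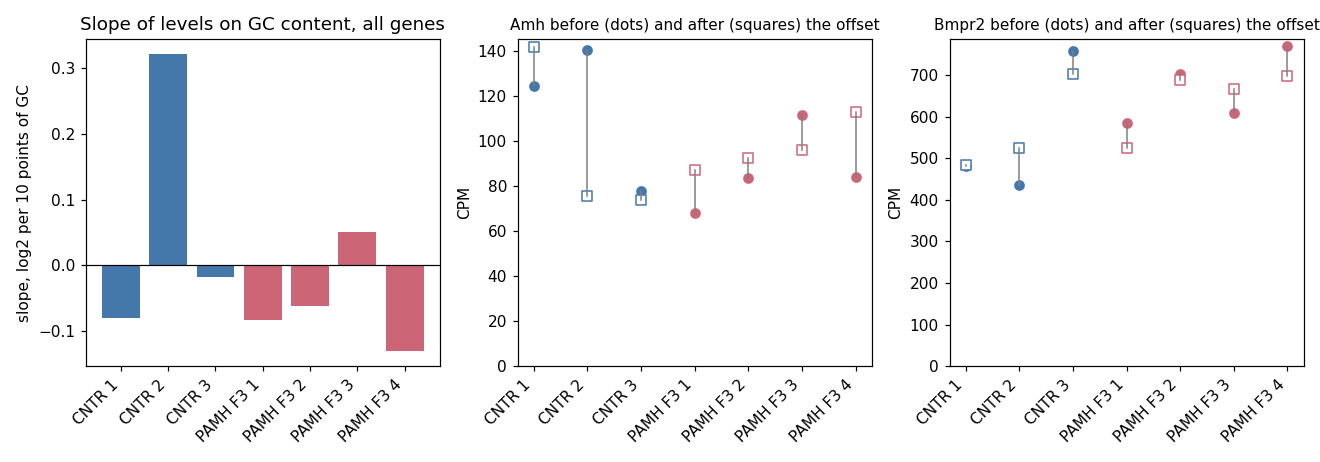
Left, the slope of each library's levels on transcript GC content over all genes (log2 per 10 points of GC; blue CNTR, red PAMH F3). Middle and right, CPM of Amh and Bmpr2 in each library before (dots) and after (squares) the offset for GC content and gene length, with both y axes from 0. CNTR 2 has a slope of 0.32, and its Amh value moves from 140 to 75.8 CPM.

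Amhr2 (ENSMUSG00000023047, chr15:102445367-102454633, plus strand), the receptor whose promoter is printed above, was at 114, 137 and 133 CPM in CNTR 1 to 3 and at 108, 110, 135 and 127 CPM in PAMH F3 1 to 4. The groups interleaved, with CNTR 1 among the low PAMH F3 libraries and PAMH F3 3 between the high CNTR libraries. The log2 fold change was -0.02, with an interval from -0.22 to 0.18 and an edgeR adjusted p of 0.978. The offset for GC content and length turned its sign, to 0.10. The log2 ratio of Amh to Amhr2 per length was 0.39, 0.30 and -0.51 in CNTR 1 to 3 and -0.41, -0.14, -0.01 and -0.33 in PAMH F3 1 to 4. CNTR 3 had the lowest ratio of all 7, below every PAMH F3 library.

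Bmpr2 (ENSMUSG00000067336, chr1:59763400-59879014, plus strand), the receptor for BMPs, was the most heavily counted member. It was at 482, 435 and 758 CPM in CNTR 1 to 3. In PAMH F3 1 to 4 it was at 585, 703, 609 and 770 CPM. CNTR 1 and CNTR 2 lay below every PAMH F3 library, and CNTR 3 lay above 3 of the 4, the mirror image of Amh. The means were 558 ± 174 (SD, n = 3) and 667 ± 85.5 CPM (SD, n = 4). The log2 fold change was 0.31 ± 0.12 (SE), with an interval from 0.03 to 0.59 (edgeR, unadjusted p = 0.0329, adjusted p = 0.628). Without surrogate variables it was 0.26 (interval -0.16 to 0.68), and the exact permutation p was 0.286.

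Bmpr2 had the lowest transcript GC content of the members, 39.6%. The 1789 tested genes within 2.5 points of it had a median log2 fold change of 0.06 without surrogate variables, smaller than that of Bmpr2. With the offset for GC content and length Bmpr2 was at 0.18 (interval -0.16 to 0.51), and with the offset and surrogate variables at 0.26 (interval -0.03 to 0.54). As with Amh, single CNTR libraries moved the value in both directions. With no surrogate variables it was 0.10 without CNTR 2, and it was 0.54 without CNTR 3. The groups then did not overlap, because CNTR 3 was the only CNTR library not below every PAMH F3 library. How many of all genes separate in this way was not counted. The part of base composition in the difference of Bmpr2 was not tested.

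**Figure D3:**
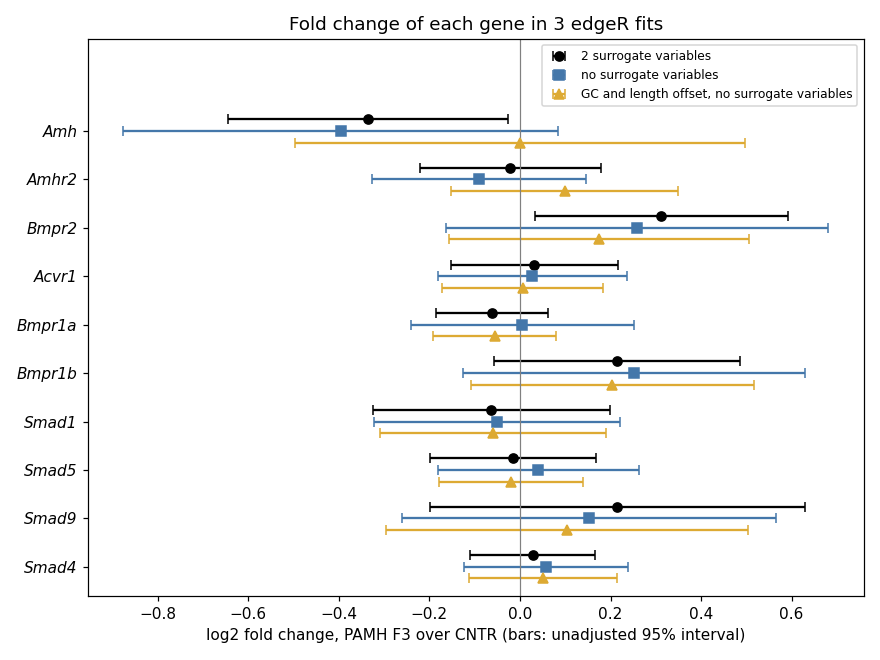
Log2 fold change of PAMH F3 over CNTR (x axis) for each gene in 3 edgeR fits, with unadjusted 95% intervals as bars. Black circles use 2 surrogate variables, blue squares none, and yellow triangles an offset for GC content and gene length without surrogate variables. Amh sits at -0.34, -0.40 and 0.00 in the 3 fits and Bmpr2 at 0.31, 0.26 and 0.18.

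Of the type I receptors, which carry the kinase that acts on the SMADs, Bmpr1b had the widest spread. It was at 198, 141 and 231 CPM in CNTR 1 to 3 and at 197, 232, 205 and 269 CPM in PAMH F3 1 to 4. As with Bmpr2, CNTR 2 was the lowest library and PAMH F3 4 the highest. Its log2 fold change was 0.22 ± 0.12 (SE), with an interval from -0.06 to 0.49 and an edgeR adjusted p of 0.715. The fold change was 0.20 with the offset for GC content and length.

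Bmpr1a was at 257, 198 and 253 CPM in CNTR 1 to 3 and at 250, 232, 212 and 253 CPM in PAMH F3 1 to 4. Apart from CNTR 2, the CNTR libraries lay above every PAMH F3 library, if only just in CNTR 3. The groups therefore did not overlap once CNTR 2 was left out, and the share of all genes that then separate was not counted. Its log2 fold change was -0.06 (interval -0.18 to 0.06, edgeR adjusted p = 0.818). An antisense gene, Gm17110, shares 290 exon bases with Bmpr1a, and the strand setting of the counting is not given in the sources used here. Acvr1, which encodes ALK2, ran from 51.3 to 58.4 CPM in CNTR and from 51.6 to 61.9 CPM in PAMH F3. Acvr1 had a log2 fold change of 0.03 (interval -0.15 to 0.22, edgeR adjusted p = 0.957).

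The receptor-regulated SMADs were Smad5, Smad1 and Smad9, in falling order of counts. Smad5 was at 227 to 254 CPM in CNTR and at 217 to 267 CPM in PAMH F3. Its difference was -0.02 on the log2 scale (interval -0.20 to 0.17). Smad5 shares 100 exon bases with Gm27301, a short RNA gene on the same strand. Smad1 was at 46.3, 47.6 and 41.2 CPM in CNTR 1 to 3 and at 50.6, 42.0, 44.4 and 36.5 CPM in PAMH F3 1 to 4, with both extremes among the PAMH F3 libraries. Smad1 differed by -0.06 on the log2 scale (interval -0.33 to 0.20).

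Smad9, the least counted member, was at 9.88, 13.9 and 13.2 CPM in CNTR 1 to 3 and at 13.1, 10.4 and 14.7 CPM in PAMH F3 2 to 4, with PAMH F3 1 the highest of all 7. The 0.21 log2 fold change of Smad9 had the widest interval of the SMADs, from -0.20 to 0.63. Smad4, which joins each activated SMAD in the nucleus and is also used by the activin and TGF-β branch, varied little. It was at 115, 106 and 115 CPM in CNTR 1 to 3 and at 118, 108, 110 and 128 CPM in PAMH F3 1 to 4, a log2 fold change of 0.03 (interval -0.11 to 0.17). The edgeR adjusted p of the 4 SMADs lay between 0.812 and 0.984. An interval of this kind bounds the difference and does not show that the groups were alike.

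Spread within a group was unequal among the members. The coefficient of variation in CNTR was 31.2% for Bmpr2, 28.4% for Amh and 24.1% for Bmpr1b, against 4.47% for Smad4 and 5.99% for Smad5. In PAMH F3 the highest was 20.9%, for Amh. CNTR 2 and CNTR 3 stood at opposite ends of their group for Bmpr2, Amh and Bmpr1b alike.

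Levels were compared between genes per kilobase of merged exons (CPM per kb, mean of the 7 libraries). Amhr2, at 61.6, and Amh, at 59.0, led, and their order held in 5 of 7 libraries. Bmpr1a (37.2), Bmpr1b (35.3), Bmpr2 (34.5), Smad5 (32.5) and Smad4 (30.8) followed closely, and Amh exceeded Bmpr1a in all 7 libraries. Neighbors from Bmpr1a down to Smad5 kept their order in only 4 of 7 libraries and Smad5 and Smad4 in 6, so neighboring levels in this stretch were not separable beyond the spread. Farther apart, Bmpr1a exceeded both Smad5 and Smad4 in all 7 libraries. Acvr1 (11.4), Smad1 (7.04) and Smad9 (2.44) were each lower than the gene before them in every library. The merged length depends on the annotation, which gives Bmpr2 17983 bases. With the median transcript length of each gene Amhr2 stayed highest and Smad9 lowest, but Amh moved from rank 2 to rank 7. The order of Acvr1 and Smad1 turned, with Smad1 above Acvr1 in all 7 libraries.

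**Figure D4:**
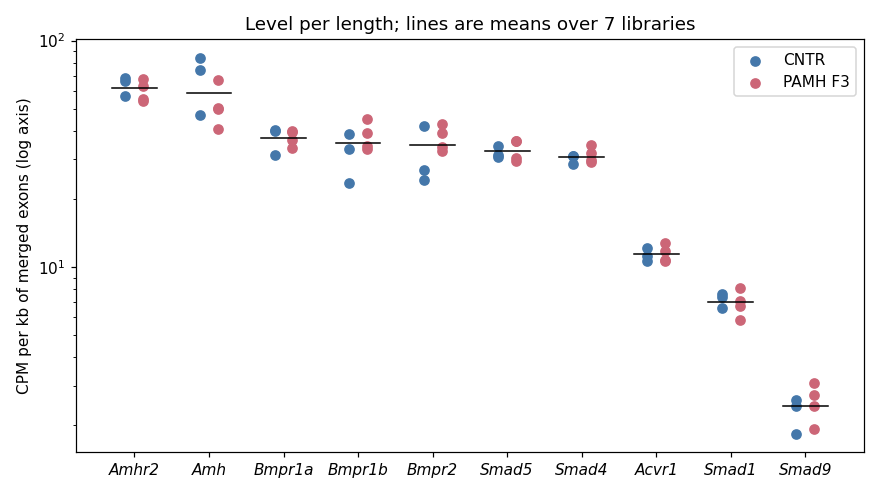
Level of each gene per kb of merged exons (CPM per kb, log axis) in the CNTR (blue) and PAMH F3 (red) libraries, ordered by the mean of the 7 libraries (black lines). Amhr2 and Amh lead at 61.6 and 59.0, the next 5 genes lie between 30.8 and 37.2, and Smad9 is lowest at 2.44.

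These levels give the make-up of the receptor and SMAD RNA, summed over all cells of the ovary. Protein was not measured here, nor were shares within a cell type. Bmpr1a made up 46.4 ± 2.17% of the type I receptor level in CNTR (SD, n = 3) and 43.1 ± 2.15% in PAMH F3 (SD, n = 4). Bmpr1b made up 39.3 ± 3.47% in CNTR and 43.6 ± 3.39% in PAMH F3. Acvr1 took the remaining 14.3 ± 2.35% and 13.3 ± 1.29%. In 3 of the 4 PAMH F3 libraries Bmpr1b exceeded Bmpr1a, which it did in no CNTR library, and PAMH F3 1 was like the CNTR libraries in this. With median transcript lengths Bmpr1a was above Bmpr1b in all 7 libraries.

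Smad5 dominated the receptor-regulated SMADs, with 77.1 ± 1.92% in CNTR and 77.6 ± 2.11% in PAMH F3. Smad1 held 17.3% and 16.4%, and Smad9 held 5.56% and 5.98%. Of the type II pair, Amhr2 made up 68.0%, 73.9% and 61.2% of the summed Amhr2 and Bmpr2 level in CNTR 1 to 3 and 62.4%, 58.4%, 66.6% and 59.7% in PAMH F3 1 to 4. Exact two-sided permutation tests of the 7 shares and of the ratio of Amh to Amhr2 gave p from 0.143 to 0.771, unadjusted, so 0 of 8 passed 0.05. Without CNTR 3, 3 of the 8 no longer overlapped between groups, where the smallest possible exact p is 0.0667. Without PAMH F3 1 this was so for 2 of the 8. A background for these counts was not computed. The 8 values are not independent, since the shares of a class add up to the whole and Amhr2 enters its share and the ratio.

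**Figure D5:**
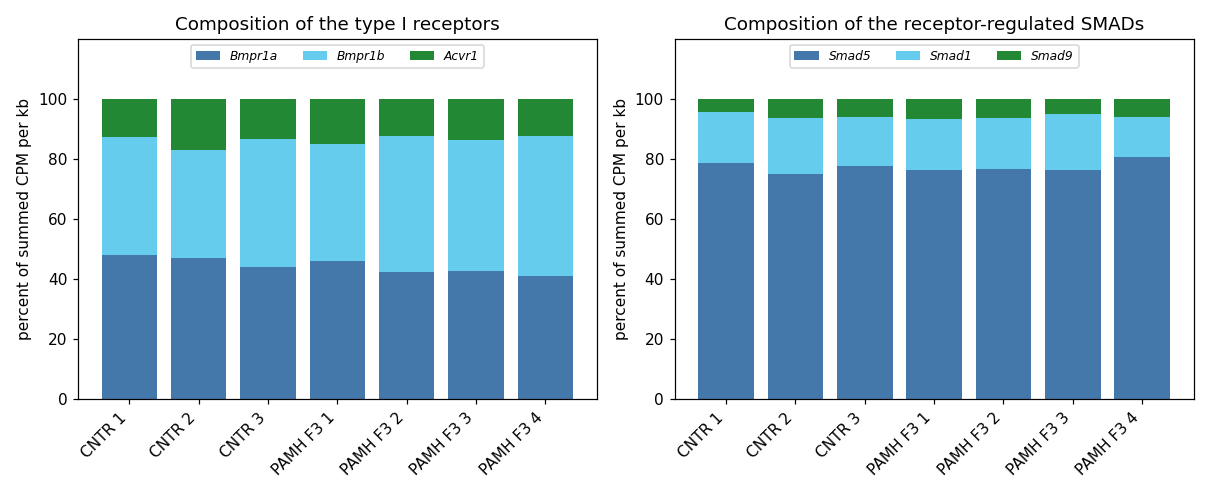
Share of each type I receptor (left) and each receptor-regulated SMAD (right) in the summed CPM per kb of its class, in percent, for each library. Smad5 takes 75.0% to 80.7% of its class in every library, and Bmpr1b is above Bmpr1a in PAMH F3 2, 3 and 4.

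Granulosa cells, the source of AMH, were followed by their markers, one of which, Foxl2, also stands in a pathway list below. The 10 granulosa markers summed to 4206, 4098 and 6848 CPM in CNTR 1 to 3 and to 5149, 5681, 5138 and 7229 CPM in PAMH F3 1 to 4, and none of them had a library at 0. In the sum CNTR 2 was lowest and PAMH F3 4 highest, as for Bmpr1b and Bmpr2. CNTR 3 stood far above the other CNTR libraries, as for Bmpr2. Amh ran in the opposite order within CNTR, from 140 CPM in CNTR 2 to 78.0 CPM in CNTR 3. Inha and Inhba were the largest parts of the sums, at 1648 and 936 CPM in CNTR 2 and 2130 and 2378 CPM in CNTR 3. Single markers differed in pattern: Nr5a2 was lowest in CNTR 2 (458 CPM), while Foxl2 was highest there (82.4 CPM). In the test with surrogate variables 4 of the 10 markers were higher (background 3.89%) and 1 lower (background 3.74%) at an unadjusted p under 0.05, and 0 passed after adjustment. Without surrogate variables 2 were higher (background 1.17%) and 1 lower (background 2.72%). The part of granulosa cell content in the values of Amh, Bmpr2 and Bmpr1b was not tested.

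The other marker lists also overlapped between the groups. The 6 luteal markers summed to 2139 to 3743 CPM in CNTR and 1531 to 2608 CPM in PAMH F3, with CNTR 3 highest. At an unadjusted edgeR p under 0.05 with surrogate variables, 0 of the 6 were higher (background 3.89%) and 2 lower (background 3.74%). The lower ones were Ptgfr (log2 fold change -0.95) and Prlr (-0.36), and 0 passed after adjustment. Without surrogate variables 0 were higher (background 1.17%) and 1 lower (background 2.72%). The sums were 11207 to 13710 and 9906 to 13262 CPM for theca and steroidogenic cells, of which Insl3 alone had libraries at 0, and 376 to 460 and 293 to 474 CPM for oocytes. Surface and oviduct epithelium gave 3492 to 5918 and 2946 to 7116 CPM, and endothelium 186 to 228 and 154 to 236 CPM. Smooth muscle gave 948 to 1459 and 785 to 1247 CPM, leukocytes 59.0 to 66.6 and 52.3 to 81.7 CPM, and adipocytes 237 to 749 and 97.2 to 543 CPM. At the unadjusted threshold with surrogate variables, 1 of 4 tested theca markers was higher (background 3.89%). Likewise 1 of 4 endothelial markers was lower (background 3.74%), and the lists other than granulosa and luteal had 0.

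Around the members, 35 further genes of the pathway were counted, in 8 lists by role. All 35 were tested, and 0 passed after adjustment in edgeR. At an unadjusted p under 0.05, 1 of 35 was higher (background 3.89%) and 4 of 35 were lower (background 3.74%). The median log2 fold change was -0.05, beside 0.01 over all genes. Without surrogate variables 0 were higher (background 1.17%) and 5 lower (background 2.72%).

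The genes that answer to SMAD1, SMAD5 and SMAD9 are the closest readout of the path in these files. Id1, an inhibitor of helix-loop-helix factors and a standard BMP response gene, was at 10.5, 30.0 and 13.2 CPM in CNTR 1 to 3 and at 8.16, 11.2, 11.9 and 8.75 CPM in PAMH F3 1 to 4. CNTR 2 alone was far above the rest, and CNTR 1 lay within the PAMH F3 range. Id1 had a log2 fold change of -0.42 ± 0.12 (SE; edgeR, unadjusted p = 0.00958, adjusted p = 0.542). Its relative Id3 was at 55.5, 135 and 96.1 CPM in CNTR 1 to 3 and between 55.8 and 80.3 CPM in the PAMH F3 libraries, a log2 fold change of -0.19. Without surrogate variables Id1 was at -0.84 and Id3 at -0.53, and of these Id1 passed the unadjusted threshold. Without CNTR 1, and with surrogate variables estimated again, Id1 (-1.01, adjusted p = 0.0440) and Id3 (-0.78, adjusted p = 0.0353) passed the edgeR threshold. That fit called 37 genes among all tested, against 0 in the fit of all libraries. Without surrogate variables, leaving out CNTR 1 called 0 genes. Id2, Id4, Hey1 and Atoh8 had log2 fold changes of -0.24, 0.11, 0.15 and 0.25 and adjusted p of 0.765 or more.

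The repulsive guidance molecules are co-receptors that bind BMPs. Rgma was at 8.20, 12.9 and 9.22 CPM in CNTR 1 to 3 and at 7.51, 7.08, 7.03 and 6.02 CPM in PAMH F3 1 to 4. Every PAMH F3 library was below every CNTR library, as in 2.4% of all genes, and Rgma was the only 1 of the 35 with such a gap. Its log2 fold change was -0.41 ± 0.14 (SE), with an edgeR adjusted p of 0.6 and an exact permutation p of 0.0286, unadjusted and the smallest this design can give.

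Rgmb was at 75.8, 73.2 and 48.2 CPM in CNTR 1 to 3 and at 78.4, 85.1, 92.0 and 70.3 CPM in PAMH F3 1 to 4, where PAMH F3 4 lay below CNTR 1 and CNTR 2. Rgmb had a log2 fold change of 0.31 ± 0.05 (SE), with an unadjusted edgeR p of 0.000735 and an adjusted p of 0.369. Without surrogate variables the unadjusted p was 0.0874. DESeq2 called it with those variables (adjusted p = 0.0157), the only listed gene it called. Endoglin (Eng) had a log2 fold change of -0.17.

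Proprotein convertases cleave the AMH precursor. Furin was at 81.6, 145 and 89.1 CPM in CNTR 1 to 3 and at 82.7, 74.2, 79.0 and 65.5 CPM in PAMH F3 1 to 4, with CNTR 2 highest (log2 fold change -0.30, edgeR adjusted p = 0.645, and -0.48 without surrogate variables). Pcsk5 and Pcsk6 had log2 fold changes of 0.15 and -0.09.

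Of the 7 transcription factors known to act on the Amh gene, Foxl2, a factor of granulosa cell identity, was at 50, 82.4 and 66 CPM in CNTR 1 to 3 and at 41.0, 51.7, 54.6 and 49.9 CPM in PAMH F3 1 to 4. CNTR 2 was again the highest library. Foxl2 had a log2 fold change of -0.24 ± 0.07 (SE; edgeR, unadjusted p = 0.0100, adjusted p = 0.542), and -0.42 without surrogate variables. Nr5a1, for whose product the letters CAAGGTC were searched, was at 204 to 332 CPM in CNTR and 244 to 269 CPM in PAMH F3 libraries. The log2 fold change of Nr5a1 was 0.04. Gata4, Gata6, Sox9, Wt1 and Nr0b1 lay between -0.04 and 0.06 on that scale.

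The inhibitory arm gave 0 of 5 at the unadjusted threshold with surrogate variables (background 7.63%) and 1 of 5, Smad6, without them (background 3.89%). Smad6, which BMP signaling induces and which blocks the receptors, was at 2.77, 6.36 and 3.47 CPM in CNTR 1 to 3 and between 2.26 and 3.10 CPM in PAMH F3, with CNTR 2 highest. Smad6 had a log2 fold change of -0.38 (edgeR adjusted p = 0.697), and of -0.68 without surrogate variables. Smad7, Bambi, Smurf1 and Smurf2 lay between -0.11 and 0.12. The corepressors Ski and Skil were at -0.05 and -0.20.

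The activin and TGF-β branch, which shares Smad4, gave 0 of 9 genes at the unadjusted threshold with surrogate variables (background 7.63%) and 0 of 9 without them (background 3.89%). Its receptors ranged from -0.36 for Acvr1c to 0.08 for Acvr2a in log2 fold change. Smad2 and Smad3 were at 0.01 and -0.08. The pathway genes highest in CNTR 2 were Id1, Id3, Furin, Foxl2, Smad6, Rgma, Ski, Smurf1, Eng, Acvrl1, Smad7, Hey1, Atoh8 and Acvr1b. With surrogate variables, Smad7 (0.11), Hey1 (0.15), Atoh8 (0.25) and Acvr1b (0.06) had log2 fold changes above 0 and the rest below. CNTR 2 was the library with the GC slope of 0.32. With the offset for GC content and length and no surrogate variables, 0 of the 35 pathway genes were higher and 3 lower at an unadjusted edgeR p under 0.05. Without the offset these counts were 0 and 5. The share of all genes at that threshold with the offset is not given here. How far the slope carries the difference of each gene was not tested.

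Near Amh in the genome, Sf3a2, a splicing factor gene ending 318 bases upstream on the same strand, was at 35.3 to 52.9 CPM in CNTR and 33.8 to 41.4 CPM in PAMH F3 (log2 fold change -0.06). CNTR 2 was the highest library for Sf3a2, as for Amh. Jsrp1, 847 bases beyond Amh on the opposite strand, stayed between 0.623 and 2.07 CPM. Beside Amhr2, Sp1 and Prr13 had log2 fold changes of 0.06 and 0.00. All 4 neighbors had overlapping groups and edgeR adjusted p of 0.818 or more.

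The patterns most like Amh over the 7 libraries, by Pearson's r of log2 CPM among 15677 genes with a mean of at least 1 CPM, were those of the pseudogene Gm7331 (r = 0.98), Plk5 (0.96), Adora2a (0.96), Msantd3 (0.96) and Rpl32 (0.95). Those most like Amhr2 were Pqlc1 (0.99), D630003M21Rik (0.98), Tnni3 (0.98), Pold2 (0.96) and Msmp (0.95). These genes were taken as the highest of many and share libraries and lie between 50.4% and 61.4% in GC content, so the coefficients carry no test.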

How the data were processed

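The authors sequenced stranded poly(A) libraries of whole ovaries and deposited, per the labels and methods, raw read counts per Ensembl gene, made by mapping to mm10 with STAR 2.5.3a and counting with HTSeq 0.6.1p1 (base calls with bcl2fastq 2.17.1.14). Strand setting and annotation release are not given in the sources used here. The counts were read without their summary lines, and 55394 of 55487 identifiers were matched to GENCODE M21. Groups came from the sample titles. The 18779 genes kept by filterByExpr (minimum count 10) were tested with edgeR 4.0.16 (quasi-likelihood F test, TMM) in R 4.3.3 with 2 surrogate variables from svaseq (sva 3.50.0), and p-values were adjusted by Benjamini-Hochberg over all of them, with a threshold of 0.05. Log2 CPM, with a prior count of 2, and shares were compared by exact permutation tests. DESeq2 1.42.0 served as an alternative. Tests were run on simulated counts that held no hidden variation between libraries and no GC slope. That run therefore does not show how the surrogate variables or the offset act on such variation. An offset by lowess on GC content and gene length was fitted as an alternative. The members, the lists and the rule for named genes (members, pathway and marker lists, the nearest genes of Amh and Amhr2, and the 5 genes most like each) were chosen with earlier results of these data known. Intervals cover the spread between libraries, and the counts hold no molecular identifiers. Other alternatives changed the number of surrogate variables, the normalization, the filter, robust fitting, a replicate block and the gene length, or omitted each library. No sample was otherwise omitted.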

Additional observations from a re-analysis of the deposited data

Results flagged for a closer look

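In PAMH F3 4, Nr5a1 was at 269 CPM, while the other PAMH F3 libraries lay between 244 and 247 CPM, a gap above Dixon's critical value for 4 samples. It was the only 1 of 45 members and pathway genes examined to pass, and chance alone flags about 1 in 20 groups. The CNTR libraries ran from 204 to 332 CPM, so the value lay inside the CNTR range.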

How the results depend on the processing

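No member passed the adjusted threshold under any of the 27 alternatives run (smallest adjusted p = 0.268). Over 270 member fits, 234 had the direction of the reported value, 30 had the other and 6 more rounded to 0.00 at 2 decimals. All 27 of Bmpr1b and of Bmpr2 were among the 234, as were 26 of Amh, which the GC and length offset without surrogate variables put at 0.00. Signs turned to 0.01 (Bmpr1a) and 0.04 (Smad5) with no surrogate variables, to 0.00 and 0.04 in DESeq2 without them, and to 0.03 (Smad5) with 1 surrogate variable. Amhr2 turned to 0.10 with the GC and length offset, to 0.08 with an offset for GC alone and to 0.07 with offset and surrogate variables, the last 2 chosen after seeing the data. With each library left out, log2 fold changes ran from -0.17 to 0.03 (Amhr2), -0.03 to 0.08 (Acvr1), -0.12 to 0.08 (Bmpr1a), -0.14 to 0.03 (Smad1), -0.07 to 0.09 (Smad5), -0.02 to 0.36 (Smad9), -0.01 to 0.08 (Smad4), -0.61 to -0.23 (Amh), 0.07 to 0.41 (Bmpr1b) and 0.10 to 0.54 (Bmpr2), with intermediate changes of sign to 0.02 (Smad5 without CNTR 3, Amhr2 without PAMH F3 1), 0.05 and 0.06 (Bmpr1a without PAMH F3 3 and CNTR 3), and the number of members whose groups did not overlap from 0 to 2. With a library left out, the share of all genes without overlap was not counted. The pathway count of 0 became 1 (Rgmb) in DESeq2 with the same surrogate variables. With each library left out it was 0 to 2, while 0 to 37 of all genes were called. The cause of these shifts was not tested. Same-numbered CNTR and PAMH F3 libraries had correlations of 0.10, 0.10 and -0.25 in their deviations. No pairing by replicate number was evident, and so few correlations cannot exclude one. With the replicate number as a block and no surrogate variables, 0 members and 0 pathway genes were called and Smad1 turned to 0.03. CNTR 1 correlated best with PAMH F3 1, while CNTR 2 and CNTR 3 correlated best with a PAMH F3 library of another number. With 3 against 4 libraries, 3 residual degrees of freedom remained.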
